A study of Mus musculus with 40 samples.

Results

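Livers of 12-month-old mice given ATRi, an inhibitor of the kinase ATR, were set against livers of 3-month-old mice given ATRi, all taken 72 h after partial hepatectomy (PH). These are 8 of the 40 samples of the series, chosen by their labels: the 4 mice of 12 months (M545, M546, M547 and M548), whose livers were deposited singly, and the 4 mice of 3 months, for which the authors' mean was used. All 11119 genes of the tables were compared. At both ages the labels give ATRi as 1 dose of 25, without a unit, at 24 h after PH. The tissue is labelled liver and the cell type hepatocytes, and the mice's strain and the name of the inhibitor are not given in the sources used here. Untreated livers at 72 h (4 mice of 12 months and 4 of 3 months) and livers before PH (0 h, 8 mice of 12 months and 7 of 3 months) were available as means only. The 0 h means include all 4 of the 12-month ATRi mice and 2 of the 3-month ATRi mice, whereas no mouse is shared between the ATRi and the untreated groups at 72 h.

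After part of the liver is cut away, the resting hepatocytes that stay behind enter the cell cycle, copy their DNA and divide. ATR is activated at stalled replication forks, where it slows origin firing and holds cells back from mitosis through the kinase Chk1. Regenerating hepatocytes also respond to cytokines: interleukin 1 and Toll-like receptors act through the transcription factor NF-κB, interleukin 6 acts through STAT3 on the acute phase proteins that the liver secretes, and interferons act through other STAT factors. The comparison asks how age altered the transcripts of a liver that regenerated with ATR inhibited.

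Levels are log2 values of a quantity the authors call sigma, of which the sources give no definition, and read depth is unknown. A difference is the mean level of the 4 livers at 12 months minus the mean at 3 months, on the log2 scale. It was tested with limma, and a gene is called at a Benjamini-Hochberg adjusted p under 0.05. The spread came from the 4 livers of 12 months alone, the 3-month mean counted as 4 mice, and its mice were assumed to vary like those livers. The lowest level was 0.27 to 0.55 in the 4 livers, against 0.11 in the 3-month mean, so small differences of genes near these values are not read. Hepatocyte markers were high at both ages: albumin (Alb) had 15.39, 16.04, 15.49 and 15.07 in the 4 livers, against 15.87 at 3 months. Ahsg (3.77 to 5.07, against 3.14) and Fgb (4.53 to 5.37, against 4.87), also abundant hepatocyte products, were listed far lower, so levels are not compared between genes.

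One liver stood apart. In M546, 502 genes lay 1 or more above the 3-month mean and 300 lay 1 or more below it, against 1142 to 1253 and 627 to 780 in the other 3 livers. Across genes, M546 had a Spearman correlation of 0.95 with the ATRi mean at 3 months and of 0.976 with the untreated mean at 12 months, while the other 3 livers had 0.891 to 0.901 and 0.922 to 0.933. Whether M546 differed in dose, sampling or biology was not tested.

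Under ATRi, 3442 of 11119 genes (31.0%) differed between 12 and 3 months. The 1948 genes called higher (17.5%) and 1494 called lower (13.4%) had all 4 livers on the same side of the 3-month mean. Over all genes, called or not, all 4 livers lay above that mean in 34.4% and below it in 32.1%. A difference of 1 or more was reached by 931 genes upwards (8.37%) and 439 downwards (3.95%), and the median over all genes was 0.02. The 931 and 439 became 1184 and 267 with the livers recentred on the deposited mean of their group. With a pseudocount of 1 they became 689 and 275. Of the called genes, 1114 of those that rose and 1097 of those that fell differed by less than 1. Of the 1948 genes called higher, 737 had a 3-month level under 1, where the lowest values of the livers lie above that of the 3-month mean. With genes of a mean level of 1 or more only, 1533 were higher and 1399 lower. The split moved to 1387 higher and 1652 lower with quantile normalization. The count depends on how the 3-month mean is weighted: taken as 1 mouse in place of 4, it left 4 genes called higher and 4 called lower (limma), with 2588 at an unadjusted p under 0.05. Without M546, 4528 genes were called (40.7%), 2673 higher and 1855 lower. Without M547 there were 839 higher and 517 lower, and without M548 889 and 583.

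Genes of NF-κB signalling, of interleukin 1 and of chemokines were among those with the largest differences. Of 26 measured genes of inflammation and chemokines, 16 rose and none fell, beside 17.5% and 13.4% of all genes, and their median difference was 2.10, against 0.02 over all genes. Tnfaip3, which encodes the deubiquitinase A20, an NF-κB target that shuts the pathway off, had 7.13, 6.17, 8.07 and 7.8 in M545, M546, M547 and M548, against 2.35 in the mean at 3 months. All 4 livers lay at least 3 units above that mean, and M546 was the lowest of them. The difference was 4.94 (SE 0.42, limma adjusted p = 0.00382), or 30.8-fold. Tifa, the adaptor that carries bacterial sugar signals to NF-κB, had 9.68, 9.57, 10.24 and 10.68, against 5.14 at 3 months (difference 4.90, SE 0.27, adjusted p = 0.00135). Alpk1, the kinase that senses those sugars and acts through Tifa, had 6.42, 3.88, 5.6 and 5.44, against 0.96 (difference 4.38, SE 0.53, adjusted p = 0.00637). The sensor and its adaptor were thus both above the 3-month mean in every liver of 12 months. The genes lie close together, Alpk1 at chr3:127670310-127780527 and Tifa at chr3:127789805-127832164. Whether they changed independently was not tested.

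A receptor and chemokines of the same list follow. Tlr2, the receptor for bacterial lipoproteins, had 3.9, 4.92, 5.71 and 5.77, against 1.73 (difference 3.34, SE 0.44, adjusted p = 0.0076). Cxcl14, a chemokine that hepatocytes can make, had 7.88, 5.59, 6.84 and 5.62, against 2.42 (difference 4.06, SE 0.54, adjusted p = 0.00756). The neutrophil attractants Cxcl1 and Cxcl2 split the livers: Cxcl1 had 4.71, 2.26, 6.93 and 6.32, against 2.50, and Cxcl2 had 4.4, 2.03, 6.7 and 6.1, against 2.31. The other 3 livers were thus far above the 3-month mean and M546 was below it, and neither gene was called (2.55 and 2.50, adjusted p = 0.0902 and 0.0957). Without M546 they were (3.49 and 3.43, adjusted p = 0.0108 and 0.0123). These neighbouring paralogs ran in parallel and may share reads. The medians of the list were 2.13, 0.79, 2.42 and 2.25 in M545, M546, M547 and M548.

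The promoters of 5 of these genes are shown, 3 that were called and above the 3-month mean in all 4 livers (Tnfaip3, Tifa and Tlr2) and 2 that were not called (Cxcl1 and Cxcl2). Sequences are from RefSeq (GRCm38.p6), which gave 8236 of the tested genes at least 1 promoter, and cover the 250 bases before a start site, 5′ to 3′ on the gene's strand. For genes with more than 1 start site, the first window with a match was shown where any matched. A gene counted as holding a motif if any of its windows did. Tnfaip3 and Tifa had 2 start sites each. The Tnfaip3 window shown lies almost wholly inside the gene's annotated span, which ends at 19015657. Capitals mark a match to an NF-κB motif (GGGA or GGGG, then any 2 bases, then TTCC, on either strand). Such a match stood 12 bases before the start site in Tnfaip3 (chr10:19015411-19015660, minus strand), 71 in Cxcl1 (chr5:90890995-90891244, plus strand), 97 in Cxcl2 (chr5:90903649-90903898, plus strand) and 173 in Tlr2 (chr3:83841609-83841858, minus strand). In Cxcl1 and Cxcl2 the 2 matches, 1 on each strand, overlap. Tifa (chr3:127789622-127789871, plus strand) held none of these letters in the window.
Tnfaip3: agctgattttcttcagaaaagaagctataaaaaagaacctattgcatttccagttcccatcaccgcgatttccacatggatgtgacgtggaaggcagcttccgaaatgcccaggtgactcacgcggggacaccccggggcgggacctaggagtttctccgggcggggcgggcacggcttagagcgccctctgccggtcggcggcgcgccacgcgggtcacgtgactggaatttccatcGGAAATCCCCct
Cxcl1: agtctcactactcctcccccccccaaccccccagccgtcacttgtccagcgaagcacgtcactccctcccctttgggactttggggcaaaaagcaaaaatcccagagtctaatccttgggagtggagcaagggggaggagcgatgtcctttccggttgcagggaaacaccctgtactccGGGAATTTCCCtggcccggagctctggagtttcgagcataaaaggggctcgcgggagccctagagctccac
Cxcl2: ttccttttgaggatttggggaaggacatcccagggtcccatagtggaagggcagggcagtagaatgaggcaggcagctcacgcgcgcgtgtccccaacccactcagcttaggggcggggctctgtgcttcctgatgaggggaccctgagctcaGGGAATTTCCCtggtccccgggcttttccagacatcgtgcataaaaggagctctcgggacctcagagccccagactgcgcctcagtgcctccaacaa
Tlr2: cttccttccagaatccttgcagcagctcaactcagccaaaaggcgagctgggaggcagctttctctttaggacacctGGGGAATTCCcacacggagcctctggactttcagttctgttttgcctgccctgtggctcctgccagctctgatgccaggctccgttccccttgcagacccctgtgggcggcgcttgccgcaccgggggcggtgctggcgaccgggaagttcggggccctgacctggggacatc
Tifa: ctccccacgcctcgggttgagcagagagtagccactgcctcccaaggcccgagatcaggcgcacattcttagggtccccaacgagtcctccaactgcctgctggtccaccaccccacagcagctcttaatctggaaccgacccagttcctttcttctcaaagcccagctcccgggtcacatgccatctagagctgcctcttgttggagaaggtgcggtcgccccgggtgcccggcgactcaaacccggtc
Of the 17 list members with a promoter, 6 held the motif (35.3%), against 274 of 8236 genes (3.33%). Members of this list are known NF-κB targets, and a match describes the sequence only.

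Acute phase genes rose in 20 of 26 cases and fell in none, with a median of 1.38, beside 17.5% and 13.4% of all genes. Crp, C-reactive protein, had 8.49, 8.6, 9.08 and 9.22, against 4.67 at 3 months (difference 4.18, SE 0.20, adjusted p = 0.00132). Il1r1, the interleukin 1 receptor, had 7.8, 6.02, 7.54 and 8.2, against 3.59 (difference 3.80, SE 0.46, adjusted p = 0.00666). Il1rn, its soluble antagonist, had 5.14, 4.52, 6.16 and 5.52, against 1.85 (difference 3.48, SE 0.36, adjusted p = 0.00531). Receptor and antagonist were both lowest in M546 among the 4 livers and far above the 3-month mean in each. Steap4, a metalloreductase induced in inflammation, rose by 2.51, the ceruloplasmin gene Cp by 1.41 and complement C3 by 1.07. The zinc importer Slc39a14 (2.64), which brings metal into hepatocytes in inflammation, and the metal-binding protein Mt1 (1.69) rose too. In the complement and coagulation list, 8 of 30 genes rose and 2 fell (median 0.15), beside the same shares.

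The promoters of C3 (chr17:57228137-57228386, minus strand) and Steap4 (chr5:7960222-7960471, plus strand) illustrate another motif, that of C/EBP factors (TTGCNNAA, either strand), in capitals.
C3: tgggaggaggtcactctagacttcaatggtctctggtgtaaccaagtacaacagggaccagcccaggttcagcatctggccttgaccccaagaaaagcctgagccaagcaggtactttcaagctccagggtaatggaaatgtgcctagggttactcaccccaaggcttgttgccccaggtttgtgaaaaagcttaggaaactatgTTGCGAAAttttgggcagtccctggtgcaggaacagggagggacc
Steap4: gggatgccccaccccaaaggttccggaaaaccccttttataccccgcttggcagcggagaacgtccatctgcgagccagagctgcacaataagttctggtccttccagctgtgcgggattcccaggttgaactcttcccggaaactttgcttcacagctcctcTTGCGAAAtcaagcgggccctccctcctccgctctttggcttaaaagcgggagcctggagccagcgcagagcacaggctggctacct
The motif stood in 12 of 24 acute phase genes with a promoter, against 804 of all 8236 (9.76%). The interferon-stimulated response element (TTTC, any 2 bases, TTTC, on either strand) stood in 15 of 27 interferon response genes (55.6%), against 277 of 8236 (3.36%). The STAT motif (TTCNNNGAA, either strand) was found in 3 of 17, 6 of 24 and 7 of 27 genes of the inflammation, acute phase and interferon lists, against 7.54% of all genes. These shares count list members whether called or not, so they do not bear on the age difference. Among the 1423 genes called higher with a promoter, 4.36% held the NF-κB motif, against 3.33% of all genes. The C/EBP motif stood in 11.5% of them, the interferon element in 3.72% and the STAT motif in 8.78%. Of the interferon genes called higher, 2 had a promoter, and 1 of these held the element.

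**Figure D1:**
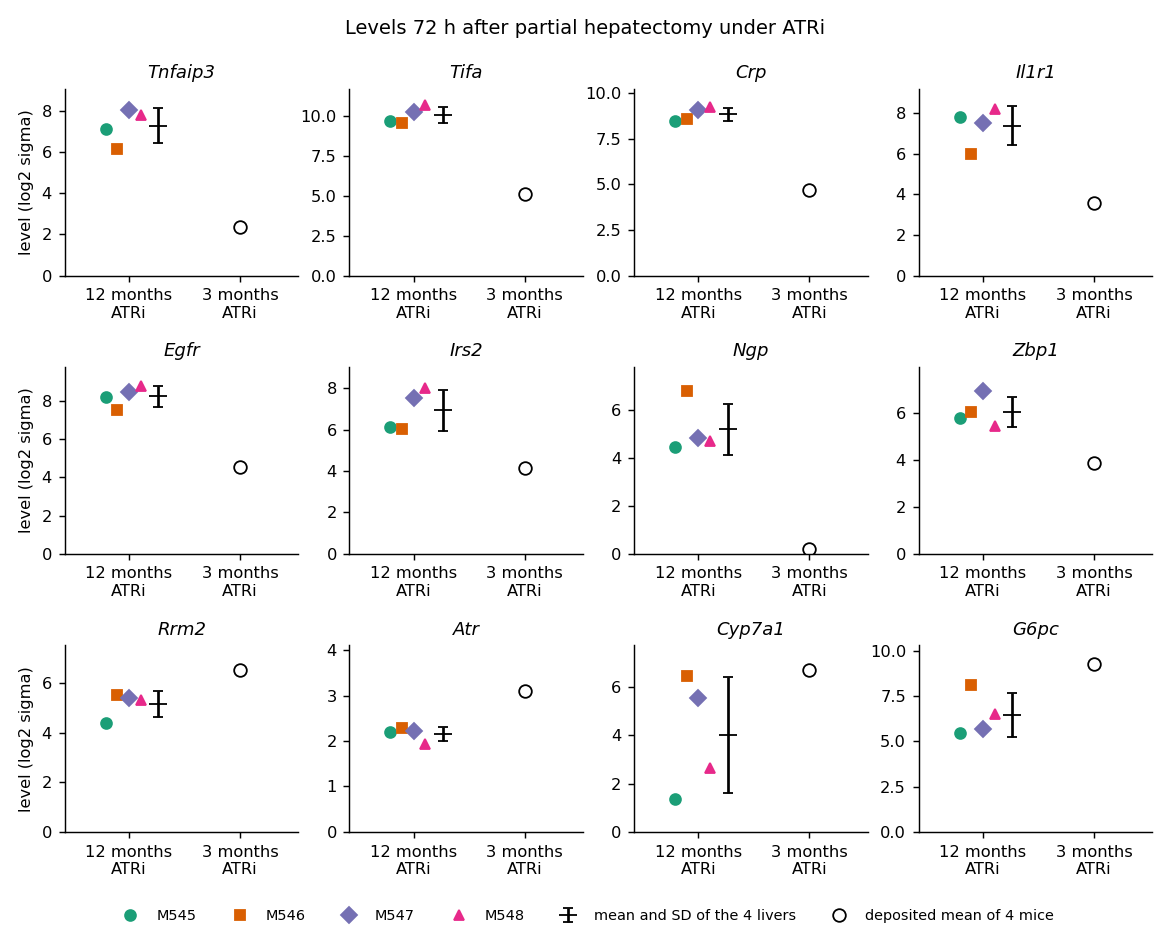
Levels (log2 sigma) of 12 genes 72 h after PH under ATRi. Coloured points are the 4 livers of 12 months with their mean and SD, and open circles are the deposited mean of 4 mice of 3 months, for which no spread exists. Tnfaip3, Tifa, Crp, Il1r1, Egfr, Irs2, Ngp and Zbp1 lie above that mean in every liver, Rrm2, Atr and G6pc lie below it in every liver, and Cyp7a1 runs from 1.38 to 6.46.

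Markers of neutrophils and macrophages were higher at 12 months, whereas no measured marker of T, NK or B cells passed the test upwards. Of 10 measured neutrophil markers 8 rose and none fell (median 2.24), beside 17.5% and 13.4% of all genes. At 3 months 6 of the 10 were under 1, near the lowest values, and the list's summed level was 7.36 to 8.1 in the 4 livers, against 6.16 at 3 months. Ngp, a granule protein of immature neutrophils, had 4.47, 6.8, 4.85 and 4.73, against 0.19 at 3 months, which is close to the lowest value of that mean (difference 5.03, SE 0.53, adjusted p = 0.00531). M546 was the highest of the 4 livers. Ltf, lactoferrin of the granules, had 1.82, 4.8, 2.42 and 2.31, against 0.13, next to the lowest value of the 3-month mean (0.11), again with M546 highest (difference 2.71, SE 0.65, adjusted p = 0.0253). The gelatinase Mmp9 (3.01) and the chemokine receptor Cxcr2 (2.52), both of mature neutrophils, rose as well, and there M546 was not the highest. In bulk liver, more cells of a type and more RNA per cell cannot be told apart.

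Among 19 markers of Kupffer cells and other macrophages, 10 rose and none fell (median 1.11, beside 17.5% of all genes higher), and their summed level was 9.7 to 10.8, against 8.72. Lyz2 (lysozyme) had 6.44, 5.65, 6.06 and 5.35, against 3.95, and Csf1r, the receptor that macrophages need to survive, had 6.29, 5.98, 6.06 and 5.89, against 4.42. Both lay above the 3-month mean in every liver, by 1.93 (SE 0.26, adjusted p = 0.00769) and 1.64 (SE 0.15, adjusted p = 0.00445). Ctss, a lysosomal protease, rose by 1.70. Marco, a scavenger receptor, had 8.22 in M545 and 5.9 to 6.48 in the other livers, against 5.03 (difference 1.66, SE 0.51, adjusted p = 0.0486). Of 13 T and NK cell markers none passed the test (median 0.17, summed level 4.4 to 4.78, against 4.45), and 11 of the 13 were under 1 at 3 months. Of 7 B and plasma cell markers 1 fell and none rose, and of 7 dendritic cell markers 1 rose and 1 fell (medians 0.06 and 0.07). Stellate cell and fibroblast markers fell in 6 of 16 cases and rose in none (median −0.38, beside 13.4% of all genes lower). Those that fell included Acta2, smooth muscle actin (−1.02), the collagen gene Col1a2 (−1.11) and Lrat, whose enzyme esterifies retinol in stellate cells (−0.96). Of 19 sinusoidal endothelial markers 2 fell, a share below the 13.4% of all genes, and the larger fall was that of Wnt9b, the Wnt ligand of central veins (−1.10). The part of cell composition in the inflammatory genes above was not tested.

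Interferon response genes varied from liver to liver. Of 36 measured, 6 rose and none fell, a share close to the 17.5% of all genes that rose, and the list's medians were 0.19, 0.88, 1.81 and 0.24 in M545, M546, M547 and M548. Zbp1, a sensor of Z-form nucleic acids, had 5.78, 6.04, 6.94 and 5.45, against 3.85 at 3 months (difference 2.20, SE 0.33, adjusted p = 0.0092). Xaf1, an interferon-induced partner of apoptosis inhibitors, had 3.6, 5.07, 5.95 and 4.39, against 3.10 (difference 1.66, SE 0.50, adjusted p = 0.0455). M547 was the highest liver for both genes. Parp14, an ADP-ribosyltransferase (1.09), and Oas2, an RNA-sensing synthetase (1.06), rose too. In the antigen presentation list 3 of 11 rose and none fell, beside the same 17.5% higher: the MHC class I genes H2-Q4 (1.38) and H2-K1 (0.69), which have close relatives and may share reads, and their activator Nlrc5 (1.01).

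**Figure D2:**
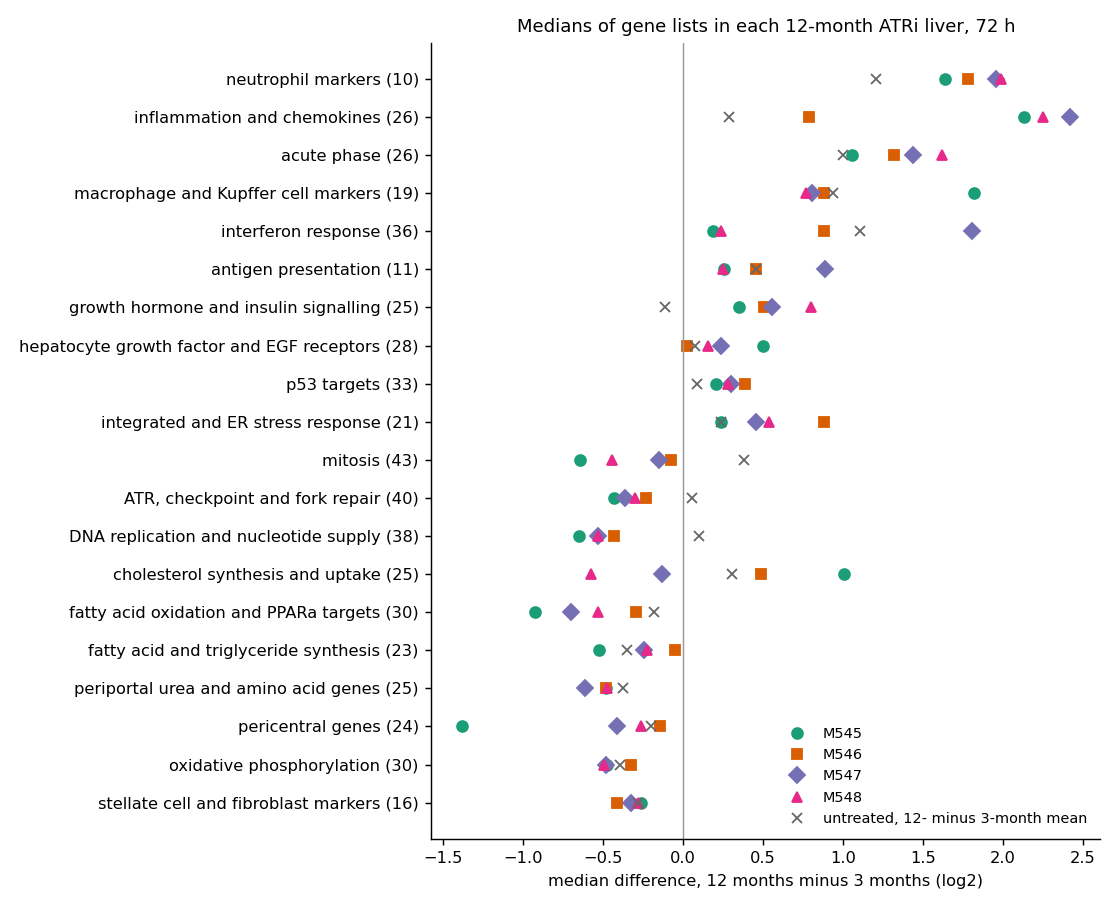
Median difference (log2) of 20 gene lists, with the number of measured members in brackets. Coloured points are single livers of 12 months under ATRi minus the 3-month ATRi mean, and crosses are the untreated 12-month mean minus the untreated 3-month mean at 72 h. The inflammation list lies at 2.13 to 2.42 in 3 livers and at 0.79 in M546, and the interferon list runs from 0.19 to 1.81.

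Some receptors and transducers of growth factors and insulin rose, while most members of both lists did not pass the test. Egfr, the receptor through which EGF and TGFα drive hepatocyte proliferation, had 8.19, 7.5, 8.46 and 8.75, against 4.54 at 3 months. Every liver was at least 2 units above that mean, and the difference was 3.69 (SE 0.28, adjusted p = 0.00382), or 12.9-fold. Its ligand gene Tgfa rose by 1.91 and its intracellular inhibitor Errfi1 by 1.96. In the list of growth factors and receptors of hepatocytes 7 of 28 rose and 3 fell (median 0.22), beside 17.5% and 13.4% of all genes. Inhbb, a subunit of activins and inhibins, had 3.6, 3.57, 4.64 and 4.78, against 0.74 (difference 3.41, SE 0.35, adjusted p = 0.00531).

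Irs2, the adaptor of the insulin receptor in liver, had 6.13, 6.04, 7.54 and 8.02, against 4.17 (difference 2.76, SE 0.49, adjusted p = 0.0119). Foxo1, the fasting transcription factor that insulin keeps out of the nucleus, rose by 2.51, and 9 of 25 genes of growth hormone and insulin signalling rose and 3 fell (median 0.46), beside the same shares of all genes. The AP-1 subunits Fosl2 (2.46) and Jund (1.31) were among 5 of 19 immediate early genes that rose.

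Genes of DNA replication fell. Of 38 measured genes of replication and nucleotide supply, 19 fell and 1 rose, beside 13.4% and 17.5% of all genes, and the median was −0.55. Rrm2, the subunit of ribonucleotide reductase made in S phase, had 4.4, 5.53, 5.4 and 5.3, against 6.51 at 3 months (difference −1.35, SE 0.28, adjusted p = 0.0167). Rpa2, which coats single-stranded DNA at forks, had 2.67, 3.36, 2.72 and 2.4, against 4.16 (difference −1.38, SE 0.25, adjusted p = 0.013). Every liver of 12 months was below the 3-month mean for both genes. Orc6 of the origin recognition complex (−1.51) and Rfc3 of the clamp loader (−1.28) fell as well. The list's medians ran from −0.65 in M545 to −0.43 in M546, so M546 did not depart from the other livers here.

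Of 40 genes of ATR, checkpoints and fork repair, 11 fell and 1 rose (median −0.29), beside 13.4% and 17.5% of all genes. Atr, the target of the inhibitor, had 2.19, 2.29, 2.23 and 1.93, against 3.10 (difference −0.94, SE 0.17, adjusted p = 0.013). The transcript level of Atr does not report the kinase's activity. Tipin, a fork protection factor that helps ATR activate Chk1, fell by 1.33 on the log2 scale, and Rad1, of the clamp that helps switch ATR on, fell by 1.15. Chek1, which encodes Chk1, had 2.0 to 2.85, against 2.63 (difference −0.15, adjusted p = 0.638), and Wee1, the kinase that holds Cdk1 inactive, differed by −0.54 (adjusted p = 0.0851). Rad51b, a recombination gene of 517 kb, was the member that rose (1.26).

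G1/S regulators fell in 8 of 23 cases and rose in 1, beside the same shares of all genes. The transcription factors E2f1 (−1.04) and Foxm1 (−1.01) and the inhibitor of Cdk4 and Cdk6 Cdkn2c (−1.73) fell, while E2f3 rose (1.16). In the mitosis list 5 of 43 fell and none rose (median −0.29), a share below the 13.4% of all genes, among them the spindle checkpoint kinases Ttk (−0.83) and Bub1 (−0.79), the protease separase Espl1 (−0.81) and the kinetochore gene Spc24 (−0.81). Mki67, a marker of cycling cells, had 4.05, 4.51, 4.58 and 4.48, against 4.66 (difference −0.25, adjusted p = 0.33). The mitosis medians were −0.64 in M545, −0.07 in M546, −0.15 in M547 and −0.44 in M548.

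Of 33 p53 targets 10 rose and 3 fell (median 0.21), beside 17.5% and 13.4% of all genes, so the share that fell was below that of all genes. Cdkn1a, the p53-induced inhibitor of cyclin-dependent kinases, had 7.05, 8.5, 7.82 and 6.99, against 7.69, with livers on both sides of the 3-month mean (difference −0.10, adjusted p = 0.838). Bcl2l1, a list member that encodes the survival protein BCL-XL, had 5.71, 3.65, 6.04 and 6.19, against 3.19 (difference 2.21, SE 0.58, adjusted p = 0.0313). The list's counts do not report p53 activity. Trp53inp1, a stress-induced p53 partner (1.51), the exonuclease gene Aen (1.30) and the mTORC1 inhibitor Ddit4 (1.23) rose.

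**Figure D3:**
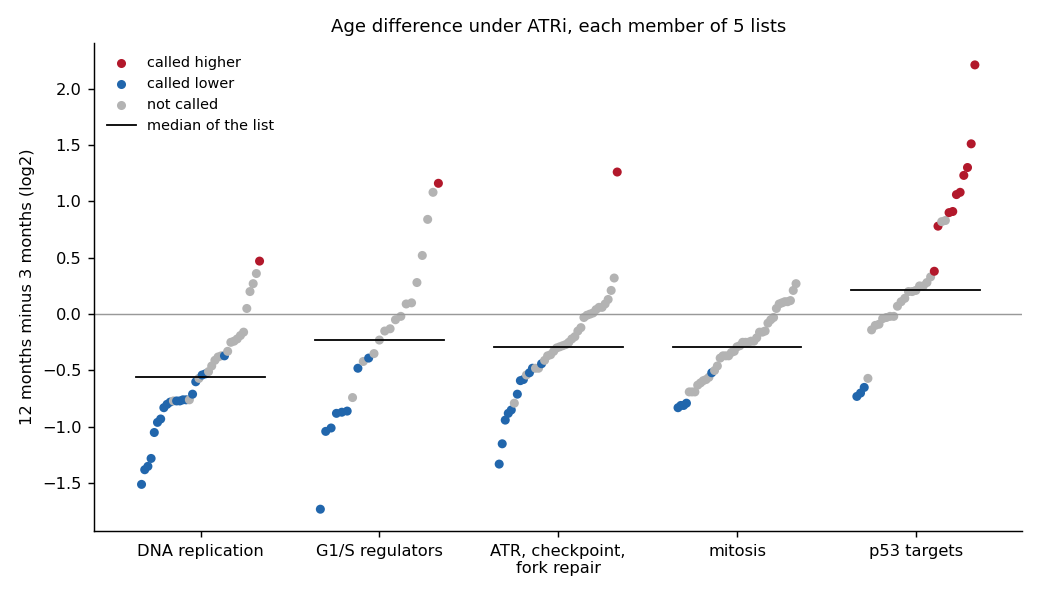
Difference between 12 months (mean of 4 livers) and 3 months (deposited mean) under ATRi, log2, for each measured member of 5 lists, sorted within a list and coloured by the limma call, with a line at each list's median. In DNA replication 19 of 38 members fell, and in mitosis 5 of 43.

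Stress genes moved in both directions, and their counts stand beside 17.5% of all genes higher and 13.4% lower. In the integrated and ER stress list 9 of 21 rose and 2 fell (median 0.52). Creld2, an ER protein induced on misfolding, had 5.28, 7.6, 6.1 and 7.31, against 4.23 (difference 2.34, SE 0.52, adjusted p = 0.0209), and Asns, asparagine synthetase, rose by 1.39. Trib3, a pseudokinase induced by ATF4 and CHOP, had 1.64, 1.71, 1.2 and 1.53, against 4.06, so that all 4 livers lay more than 2 units lower (difference −2.54, SE 0.18, adjusted p = 0.00355). Among NRF2 targets 3 of 24 rose and 8 fell: Hmox1, heme oxygenase, rose by 2.06 and the growth inhibitor Osgin1 fell by 2.01. Bag3, a co-chaperone of HSP70, rose by 1.84.

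Metabolic genes of hepatocytes fell more often than they rose in most lists, and each count below stands beside 13.4% of all genes lower and 17.5% higher. Of 30 PPARα targets and enzymes that burn fatty acids, 13 fell and 1 rose (median −0.60). The ω-hydroxylase Cyp4a14 had 2.77, 5.57, 1.63 and 5.48, against 7.06 at 3 months (difference −3.20, SE 0.95, adjusted p = 0.0443), and M546 and M548 were the 2 livers nearest to the 3-month mean. Its neighbour Cyp4a10 had 0.5, 0.83, 0.51 and 0.99, close to the lowest values, against 3.28 (−2.57). The Cyp4a genes of this cluster are near copies and may share reads. Before PH the age difference was −5.02 for Cyp4a14 and −4.42 for Cyp4a10, and untreated at 72 h it was −0.97 and −0.79. The median of the PPARα list was −0.52 before PH and −0.18 untreated at 72 h. Fatty acid synthesis genes fell in 8 of 23 cases and rose in 2: Scd1, the stearoyl-CoA desaturase, had 9.98, 10.94, 11.91 and 10.76, against 13.42 (difference −2.52, SE 0.39, adjusted p = 0.00971), the liver pyruvate kinase Pklr fell by 2.37 and the lipase Pnpla3 by 1.68, whereas the elongase Elovl6 rose by 2.92. Fabp1, the fatty acid carrier of hepatocytes, had 8.61, 11.17, 9.94 and 9.99, against 11.81 (difference −1.88, SE 0.51, adjusted p = 0.034).

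Cholesterol synthesis genes did not share a direction. The list's medians were 1.01 in M545, 0.49 in M546, −0.13 in M547 and −0.57 in M548, and 2 of 25 rose and 2 fell, among them Scarb1, the HDL receptor (1.13), and Sc5d, a sterol desaturase (−1.76). Of 25 bile acid genes 2 fell, a share below the 13.4% of all genes, the larger fall being that of the sterol exporter Abcg8 (−1.61). Cyp7a1, the enzyme that sets the rate at which cholesterol is turned into bile acids, had 1.38, 6.46, 5.53 and 2.63, against 6.71, and was not called (difference −2.71, SE 1.14, adjusted p = 0.108). Without M546 it fell by 3.53 (adjusted p = 0.0453).

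Glucose and amino acid metabolism differed in both directions. G6pc, which releases glucose from the liver, had 5.46, 8.12, 5.66 and 6.52, against 9.29 (difference −2.85, SE 0.58, adjusted p = 0.0167), with M546 nearest to the 3-month mean. Tat, tyrosine aminotransferase, a target of glucocorticoids, had 9.57, 8.76, 9.72 and 10.25, against 5.74 (difference 3.83, SE 0.31, adjusted p = 0.00382). Tat was the one periportal gene of 25 that rose, while 11 fell, led after G6pc by Etnppl, a phosphoethanolamine lyase (−2.50), and the median was −0.51. Pericentral genes fell in 6 of 24 cases and rose in 1 (median −0.57, and −1.38 in M545), with the ammonium transporter Rhbg (−1.78) and the transcription factor Tbx3 (−1.74) lower and the receptor Ahr (1.95) higher. Cyp2a5, a coumarin hydroxylase, had 1.49, 2.05, 1.25 and 0.55, against 4.6 (difference −3.26, SE 0.33, adjusted p = 0.00531).

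Of 35 drug-metabolising P450 genes 12 fell and 3 rose, beside 13.4% and 17.5% of all genes. Cyp2b10 fell by 1.82, while Por, the reductase that gives P450 enzymes their electrons, rose by 1.89. Dio1, the deiodinase that activates thyroid hormone (−2.61), Chrna4, a nicotinic receptor subunit (−3.65), and Arrdc3, an arrestin-like adaptor (−2.68), fell too. Clec2h, a C-type lectin, stood at 0.51 to 0.56 in all 4 livers, near their lowest values, against 3.44 at 3 months. Of 30 nuclear genes of oxidative phosphorylation 17 fell and 1 rose (median −0.43, and −0.49 to −0.32 by liver), among them Atp5o of the ATP synthase (−1.19) and Sdhd of complex II (−0.80), while Cox5a of complex IV rose (0.86). The list's median age difference was −0.39 untreated at 72 h and −0.01 before PH. Hepatocyte markers fell in 4 of 15 cases and rose in 3 (median −0.34): transthyretin (Ttr, −1.23) and Apob (−0.54) fell, the fibrinogen gene Fga (1.0) and the fetuin gene Ahsg (1.34) rose, and the master regulator Hnf4a differed by −0.34 (adjusted p = 0.0643). In the circadian list 2 of 19 fell and 2 rose. The repressor Nr1d1 had 6.69, 5.84, 5.57 and 3.68, against 7.52 (−2.07), and Nfil3, a repressor that opposes the activator Dbp at D-box elements, rose by 1.90. The hour of sampling is not given in the sources used here.

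Cxcl1, Cxcl2, Cyp7a1 and Cyp4a14, described above, were among the 10 genes that varied most between the 4 livers of 12 months, and 5 more follow. Car3, a carbonic anhydrase abundant in male liver, had 3.09, 10.24, 8.56 and 6.4, against 10.51, a range of more than 7 units with M546 near the 3-month mean (difference −3.44, SE 1.46, adjusted p = 0.111). Sult2a8, a bile acid sulfotransferase, had 0.86 in M545 and 6.17 to 7.0 in the other livers, against 8.04. Slco1a1, an organic anion transporter, had 0.78 in M545 and 4.04 to 5.53 in the others, against 6.16. Sult1e1, the estrogen sulfotransferase, ran the other way: it had 6.44, 1.29, 5.14 and 2.41, against 2.54. Slc10a6, a carrier of sulfated steroids, had 1.57, 1.67, 5.34 and 4.44, against 0.69. M545 was thus the lowest or the highest liver for all 5 of these genes, and none of the 5 was called with the 4 livers. Without M546, Car3 fell by 4.50 (adjusted p = 0.046). Over all genes the median SD of the 4 livers was 0.23, and 152 genes had an SD of 1 or more.

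Genes over 50 kb were higher at 12 months than genes between 5 and 50 kb, and the sign of the median for the shortest genes depended on a level filter. Gene length, from start to end in GENCODE M21 (GRCm38), was found for 10580 of the genes (95.2%). The median difference was 0.07 for genes up to 5 kb, −0.05 for those over 5 and up to 10 kb, −0.20 for those over 10 and up to 20 kb, −0.10 for those over 20 and up to 50 kb, 0.17 for those over 50 and up to 100 kb, 0.42 for those over 100 and up to 200 kb and 0.78 for those over 200 kb. Of the 422 genes over 200 kb, 305 rose (72.3%) and 3 fell, against 237 and 455 of the 2344 genes over 10 and up to 20 kb (10.1% and 19.4%) and 124 and 103 of the 637 genes up to 5 kb (19.5% and 16.2%). In the longest class the medians were 0.90, 0.48, 0.90 and 0.84 in M545, M546, M547 and M548, so all 4 livers shared the direction and M546 the least of it. With genes of a mean level of 1 or more only (344 of the 422) the median was 0.95. In the class up to 5 kb that filter kept 379 of 637 genes, and the median turned from 0.07 to −0.17. The median 3-month level of that class, unfiltered, was 1.37, so its rises include genes near the lowest values. Across genes the Spearman correlation with length was 0.29, with exon length 0.12 and with intron length 0.30, and it was −0.02 for the untreated age difference at 72 h and −0.20 for that at 0 h. Genes are not independent replicates, and RNA quality, unspliced RNA and read placement were not tested.

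Of the 10 called genes with the largest rises, 5 span over 100 kb in the annotation, beside 12.8% of all genes with a length: Alpk1, Crp, Nos1ap, Pid1 and Tacc2. Nos1ap, an adaptor of neuronal nitric oxide synthase (chr1:170302668-170589861, minus strand, 287 kb), had 5.82, 4.08, 5.65 and 6.34, against 0.81 (difference 4.66, SE 0.49, adjusted p = 0.00531). Pid1, an adaptor that dampens insulin signalling (chr1:84036296-84364180, minus strand, 328 kb), had 6.78, 5.06, 6.5 and 6.86, against 1.72 (difference 4.58, SE 0.42, adjusted p = 0.00445). Tacc2, a centrosomal protein gene of 187 kb, had 5.95, 5.06, 6.94 and 7.4, against 2.28 (4.06). These differences are far above the median of their length class. Smaller ones lie near it: Tox, a transcription factor gene of 305 kb, rose by 0.84 and the nuclear receptor gene Rora, of 734 kb, by 0.75. Uty, a Y-linked demethylase gene of 149 kb, rose by 1.47, whereas the other 3 measured Y-linked genes, added after their values were seen, differed little (Ddx3y −0.13, Eif2s3y −0.17, Kdm5d 0.06). When the trend with length was removed, 1654 genes were higher and 1433 lower, and Rora turned to −0.32 (limma adjusted p = 0.128). The inflammation list then had a median of 2.20, the replication list −0.47 and oxidative phosphorylation −0.30. The medians of 9 of 46 lists moved by more than the SD of the liver medians. Genes called lower went from 19 to 15 in the replication list, from 17 to 10 in oxidative phosphorylation and from 13 to 8 among PPARα targets. In the list of ATR, checkpoints and fork repair they went from 11 to 14.

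**Figure D4:**
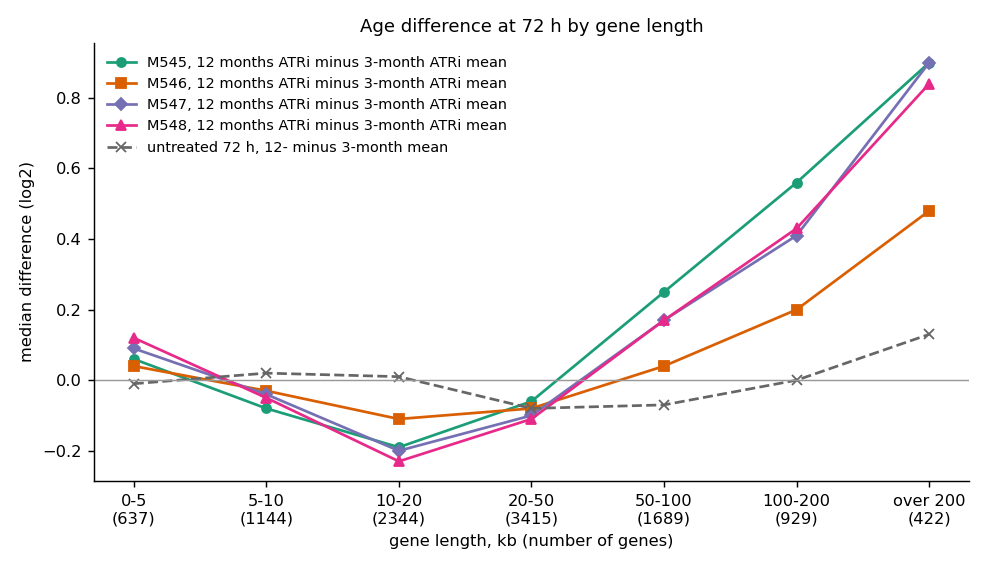
Median difference (log2) between 12 and 3 months at 72 h by class of gene length, with the number of genes in brackets. Lines with filled points are the 4 ATRi livers of 12 months minus the 3-month ATRi mean, and the dashed line is the untreated 12-month mean minus the untreated 3-month mean. Genes over 200 kb lie at 0.48 to 0.90 in the ATRi livers and at 0.13 without ATRi.

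The age difference was also taken without ATRi, between the untreated means at 72 h. There 219 genes were higher by 1 or more (1.97%) and 86 lower (0.773%), against 931 and 439 under ATRi. The untreated counts rest on deposited means only. With the ATRi livers recentred on the deposited mean of their group, 1184 genes were higher and 267 genes lower under ATRi. Before PH, 97 were higher (0.872%) and 44 lower (0.396%), in means that share mice with the ATRi groups. The signs often matched: 1460 of the 1948 genes called higher under ATRi (74.9%) were also higher at 12 months without it, against 45.3% of all genes, and 1158 of the 1494 called lower (77.5%) were also lower, against 54.6% of all. The neutrophil genes Ngp (5.03 under ATRi and 4.97 without) and Ltf (2.71 and 3.11) had close values, whereas Mmp9 (3.01 and 1.55) and Cxcr2 (2.52 and 1.25) had larger ones under ATRi, and the list's medians were 2.24 and 1.21. The macrophage list had medians of 1.11 and 0.94 (Lyz2 1.93 and 2.04) and the interferon list 0.80 and 1.11 (Zbp1 2.20 and 2.60). Some single genes had larger values under ATRi: Tnfaip3 4.94 and 1.70, Tifa 4.90 and 2.06, Crp 4.18 and 1.02, Il1r1 3.80 and 0.80, and Egfr 3.69 and 1.40. The medians of their lists were 2.10 and 0.29 for inflammation, 1.38 and 1.0 for acute phase, and 0.22 and 0.08 for growth factors and receptors. Before PH the age difference was 3.44 for Tifa, 1.91 for Tnfaip3, 0.11 for Crp and 0.41 for Il1r1, and the inflammation median was 0.89. Under ATRi and without it at 72 h, Irs2 (2.76 and −1.12) and Fosl2 (2.46 and −0.25) had opposite signs. The median of the replication list was −0.55 under ATRi and 0.10 without, and that of the mitosis list −0.29 and 0.38. These ATRi values rest on the 4 livers, whereas the untreated ones are differences of deposited means. With the deposited 12-month mean in place of the 4 livers, the ATRi medians were −0.42 for replication and −0.06 for mitosis.

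Whether the age difference itself differed with ATRi was tested as a difference of differences (limma). It passed for 1 gene of 11119 (0.00899%), while 2749 genes had an unadjusted p under 0.05. The gene was Cyp2a4, a steroid hydroxylase with a near copy in Cyp2a5 (2.12, adjusted p = 0.0105), with an age difference of 0.36 under ATRi and −1.77 without. It stood near the lowest values in 3 of the groups (0.5, 0.51, 0.7 and 0.55 in the livers of 12 months under ATRi, 0.21 at 3 months under ATRi, and 0.05 at 12 months untreated) and at 1.82 at 3 months untreated. The values above therefore do not show, with all 4 livers, that the 2 age differences differed: for Tnfaip3 the difference of differences was 3.25 (adjusted p = 0.096), for Egfr 2.29 (adjusted p = 0.0931) and for Rfc3 −1.72 (adjusted p = 0.0931).

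The result turned on M546. Without it, 1182 genes passed upwards (10.6%) and 397 downwards (3.57%), among them Tnfaip3 (3.62, adjusted p = 0.0222), Tifa (3.0, adjusted p = 0.0238), Crp (3.25, adjusted p = 0.0222), Il1r1 (3.46, adjusted p = 0.0222), Egfr (2.53, adjusted p = 0.0222) and Irs2 (4.18, adjusted p = 0.0286). Downwards, Rpa2 (−1.76, adjusted p = 0.0252), Rfc3 (−1.78, adjusted p = 0.0267), Ttk (−1.54, adjusted p = 0.0265), E2f1 (−1.16, adjusted p = 0.0389) and G6pc (−2.47, adjusted p = 0.0293) passed. By list, 12 of 26 inflammation genes passed upwards and none downwards, 5 of 26 acute phase genes upwards, 7 of 38 replication genes and 6 of 43 mitosis genes downwards, and no gene of the 36 interferon genes or the 19 macrophage markers in either direction. Leaving out a liver because its values stand apart lowers the spread of those that remain, so these calls hold for M545, M547 and M548 only. Without M545, M547 or M548, at most 1 gene passed.

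**Figure D5:**
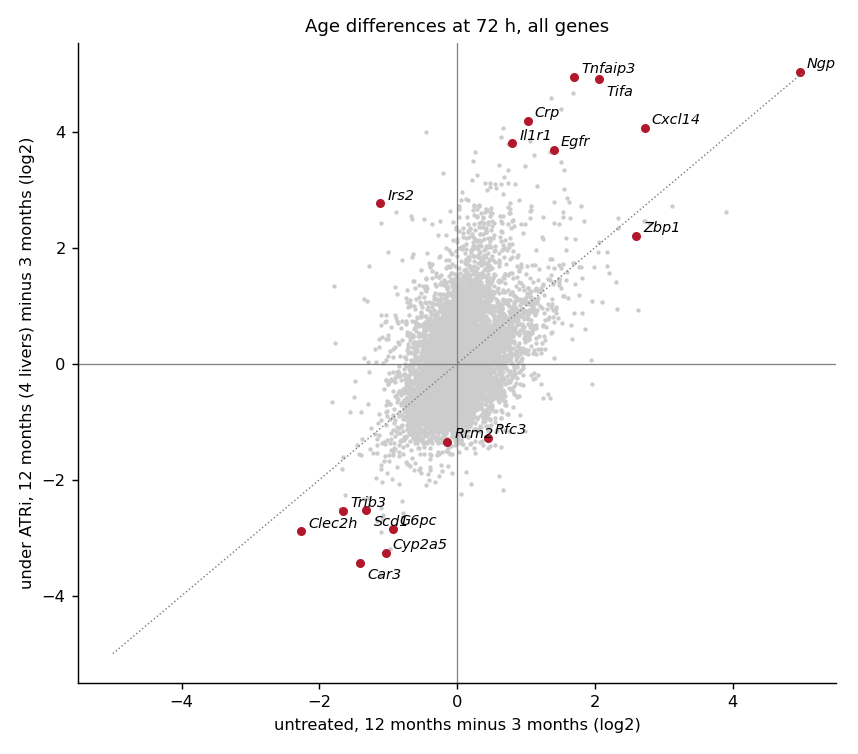
Difference between 12 and 3 months at 72 h for all genes: under ATRi (vertical axis, 4 livers minus the 3-month mean) and untreated (horizontal axis, mean minus mean), both log2. Red points are 17 named genes, and the dotted line marks equal differences. Ngp (5.03 and 4.97) and Zbp1 (2.20 and 2.60) lie near that line, whereas Tnfaip3, Crp, Il1r1 and Egfr lie above it, and Irs2 is negative without ATRi.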

How the data were processed

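RNA-seq of mouse liver was deposited as 12 tables of 11119 genes. Per the files' own labels, values are log2 levels of a quantity named sigma, which the authors deposited without a definition, and the submitters' processing notes name the builds GRCm38 and mm10. How the deposited means were formed is not given in the sources used here, and the deposited 12-month ATRi mean exceeded the mean of its 4 livers by a median of 0.09. Read depth is unknown, so no counting error can be given, and precision rests on the number of mice. Replicates are separately numbered mice, and p-values measure the spread between the 4 livers only.

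Differences were fitted with limma 3.58.1 (R 4.3.3) over all 11119 genes, with trended and robust variances and Benjamini-Hochberg adjustment at 0.05. Each liver had weight 1 and each deposited mean weight 4, and the 3 residual degrees of freedom came from the 4 livers of 12 months. The difference of differences used the untreated means in the same way. The procedure was tested on simulated data in which the 3-month mice had the spread of the 4 livers. That simulation could not test this assumption or the weight of 4. Genes named were the 10 largest called differences in each direction, up to 4 called genes of each of 47 lists (up to 2 where none was called), called differences of differences, the 10 most variable genes and fixed checks. The members and lists were chosen with earlier results of these data known. Entries that join several genes (507) were not named, and some genes the rule takes are not reported here. Alternatives were recentred livers, column centring, quantile normalization, a level filter, a pseudocount, other weights and variances, each liver left out and, added after seeing the data, removal of the trend with gene length.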

Additional observations from a re-analysis of the deposited data

Results flagged for a closer look

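Among 168 sets of values of the 4 livers at 12 months under ATRi, 11 held a liver far from the others by Dixon's criterion for 4 samples, which chance alone meets in about 1 in 20 sets. M546 had 6.8 for the neutrophil gene Ngp, against 4.47 to 4.85 in the other livers, and 1.93 for the Wnt ligand gene Wnt9b, against 1.29 to 1.37. It had 502 genes 1 or more above the 3-month mean, against 1142 to 1253. Its median difference for oxidative phosphorylation was −0.32, against −0.49 to −0.47.

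M545 had 1.51 for the spindle checkpoint kinase gene Bub1, against 1.81 to 1.87, and 0.86 for the sulfotransferase gene Sult2a8, against 6.17 to 7.0. Its list medians were 1.82 for macrophage and Kupffer cell markers, against 0.77 to 0.88, and 0.03 for T and NK cell markers, against 0.18 to 0.21. They were −0.53 for sinusoidal endothelial markers, against −0.05 to 0.0, and −0.02 for heat shock and protein folding, against 0.37 to 0.44. M547 had a median of −0.61 for periportal genes, against −0.48 to −0.47.

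The age difference of Cyp2a4 was 0.36 under ATRi and −1.77 without it, a difference of 2.12 (limma adjusted p = 0.0105) in which the untreated groups hold the larger change. Its level was at most 0.7 in each ATRi liver of 12 months, against 0.05 in the untreated 12-month mean and 1.82 in the untreated 3-month mean.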

How the results depend on the processing

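No paired analysis was possible because the 2 age groups share no mouse numbers and the 3-month mice were available as a mean only. Weighting the deposited means as 1 mouse left 8 genes called (4 higher, 4 lower) and none in the difference of differences (limma, 425 at an unadjusted p under 0.05). That test called 2 genes (1 higher, 1 lower) with recentred livers and 0 with quantile normalization, a mean level of 1 or more, or untrended variances (2491, 2136 and 2666 at an unadjusted p under 0.05). Differences of −1 or below numbered 267 with recentred livers and 275 with a pseudocount of 1. Leaving out each liver in turn gave 1356 to 4528 called genes (839 to 2673 higher, 517 to 1855 lower), 1266 to 1694 differences of 1 or more in size, and 0 to 1579 calls in the difference of differences (0 to 1182 higher, 0 to 397 lower). Of 105 called genes named, 67 kept their call under every alternative except the weight of the means, which ended 101 calls. Leaving out M547 ended 29 calls, M548 32, M545 9 and M546 7. The cause of these losses was not tested, beyond the fewer livers. Rora reversed to −0.32 with the length trend removed. Among genes not called, the recentred values were 0.08 for Chek1, 0.02 for Mki67 and 0.03 for Cdkn1a, and those with the length trend removed were 0.03 for Chek1 and 0.04 for Cdkn1a. Leaving out each liver in turn gave −0.28 to 0.01 for Chek1 and −0.41 to 0.1 for Cdkn1a. Of 46 lists, 5 changed the sign of their median. With deposited means, B and plasma cells had −0.04 and dendritic cells −0.03. Over the livers left out, cholesterol synthesis ran from −0.11 to 0.44, male-biased genes from −0.21 to 0.16 and extracellular matrix from −0.19 to 0.04. Depth is unknown, and genes near the lowest levels limit small differences.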
